A study of Homo sapiens
Mus musculus and Homo sapiens with 2 samples.

Results

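The cells described here are the A549 cells that the authors' cell annotation places at 0 h of dexamethasone. They are 1151 of the 7404 A549 cells and of the 13711 cells in the series. A549 is an established human lung adenocarcinoma line, and the cells come from 1 culture. Per the treatment protocol, control cells received the same volume of ethanol as the dexamethasone carried, and no dexamethasone. The other A549 cells had dexamethasone, a synthetic glucocorticoid, for 2, 4, 6, 8 or 10 h, at 100 nM by the protocol. Every A549 culture was given 200 µM 4-thiouridine (S4U), a uridine analog that growing transcripts take up, for the last 2 h before harvest. Iodoacetamide treatment of the fixed cells then turns incorporated S4U into base changes in the sequence reads (sci-fate). Counts with such a change, as called by the authors, are termed new RNA here. Whole minus new counts are termed pre-existing RNA. No A549 cells without S4U were used here, so the share of old molecules called new by error is unknown in this line, as is the share of new molecules that were missed.

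At a steady level, an RNA that is made and destroyed quickly is mostly new after a short labelling, and a long-lived RNA is mostly old. Transcripts of signalling feedback genes and immediate early genes are known for short lives, and those of metabolic enzymes, the cytoskeleton and the ribosome for long ones. A549 cells carry a mutated KEAP1, the protein that marks the transcription factor NRF2 for destruction, and their high output of NRF2 targets such as aldo-keto reductases is a known feature of the line.

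The 1151 cells held 33530002 whole and 6994019 new counts. The median cell had 26628 whole counts (quartiles 20660 and 35615) from 6789 genes and 5442 new counts from 3151 genes. The 4 defining markers were present at high levels. FTL, the ferritin light chain, stood at 5664 CPM (the count scaled to a fixed total per culture), FTH1, the heavy chain, at 1087, KRT8 at 2576 and KRT18 at 2257, each with counts in over 99% of cells. KRT8 and KRT18 are the paired keratins of simple epithelia. Other epithelial markers differed widely. KRT7 was at 3146 CPM in 99.7% of cells and AGR2 at 309 CPM in 77.8%. KRT19 was at 39.9 CPM in 29.7% of cells, CDH1 at 17.2 CPM in 32.3% and EPCAM at 5.61 CPM (188 counts) in 13.2%. Markers of the alveolar cells of normal lung were at or near 0, with 0 counts of SFTPA1, 1 of NKX2-1, 3 of SFTPB and 4 of SFTPC. Among markers of other cells, fibroblast genes summed to 812 counts, mostly from COL1A1 (359) and FBN1 (358). Leukocyte markers were led by CD68 at 320 counts, with 5 of PTPRC. HBB, a globin of red blood cells, had 0 counts. The endothelial marker with most counts was EMCN, with 54.

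New RNA made up 20.9% of the counts of the untreated culture (exact binomial 95% interval 20.85 to 20.87, counting error only). Single cells spread far more widely than counting would give. Their median share was 19.8% with quartiles of 16.7% and 23.6%, and the 5th and 95th percentiles were 12.5% and 30.6%. The SD across cells was 5.75 percentage points, against 0.268 from counting alone. The cells carry 63 different indices of the reverse transcription primer (RT barcodes), which the protocol adds in the wells of plates before cells are pooled and split again. None of these barcodes occurred in a treated culture, while all 189 second-round wells also held treated cells. The pooled share of a barcode's 8 to 29 cells ran from 11.7% to 25.9% (median 20.5%), and the SD of cells within barcodes was still 5.31 points. With cells in 3 groups by whole counts, the pooled share was 20.3% in the shallowest and 21.3% in the deepest group (Spearman's rho of share and counts across cells 0.14). It followed the share of reads in introns closely, with a rho of 0.91 over the same cells. This relation is a description: both shares come from the same libraries, and 65.7% of intron reads but 13.1% of exon reads were new. With the authors' doublet score the rho was 0.013.

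**Figure D1:**
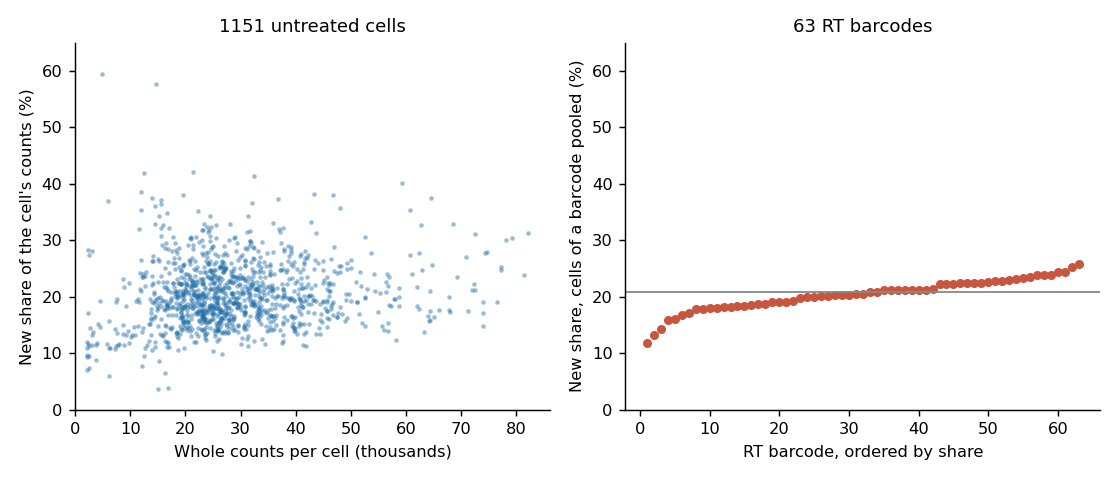
Left, the new share of each untreated cell (percent) against its whole counts (in units of 1000), 1 point per cell. Right, the new share of the pooled cells of each of the 63 RT barcodes, ordered by share, with the whole culture's 20.9% as a line. Single cells spread from 3.71% to 59.4%, and barcodes from 11.7% to 25.9%.

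Whole RNA was led by redox enzymes, cytoskeleton, ferritin and glycolysis. Counts were not divided by transcript length, so levels of different genes are given as shares of the culture's counts. ALDH1A1, a retinal and aldehyde dehydrogenase, was first with 227113 counts (6773 CPM). It was followed by the hair-type keratin KRT81 (6292 CPM), the gamma actin gene ACTG1 (5874), FTL (5664) and GAPDH of glycolysis (5111). The chaperone HSP90AA1 stood at 4165 CPM, the aldo-keto reductases AKR1B10 and AKR1C2 at 4006 and 2777, and the thioredoxin reductase TXNRD1 at 2392. The 15 leading genes held 6.20% of whole counts, and 1039 genes held 50% of them. The 30 NRF2 target genes on the list together made up 3.24% of whole RNA, beside 5.05% for the cytosolic ribosomal protein genes.

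New RNA had another order and was spread over more genes. Its leading gene was PDE4D, a cyclic AMP phosphodiesterase, with 36140 new counts, 75.04% of its own counts and 0.517% of all new RNA. In whole RNA the same gene held 0.144%. The nuclear long noncoding RNA MALAT1 (16.6% new), TXNRD1 (25.7%), ALDH1A1 (7.96%) and the hydroxylase ASPH (24.2%) came next. Further down were the inhibitor of differentiation ID3 with 87.7%, the vitamin D hydroxylase CYP24A1 with 39.8%, the long noncoding RNA PVT1 with 69.8% and NR3C1, the glucocorticoid receptor, with 59.8%. The 15 leading genes of new RNA held 3.11% of it, and those of pre-existing RNA held 7.33%. It took 1548 genes to reach 50% of new counts and 798 to reach 50% of pre-existing counts. Several of the most abundant genes supplied little new RNA. GAPDH was 5th in whole and 27th in new RNA, the actin-binding PFN1 was 12th and 239th, and KRT8 was 14th and 169th.

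By gene class, protein-coding genes held 96.7% of whole counts and were 20.5% new. Long intergenic noncoding RNAs held 1.48% and were 25.8% new, antisense transcripts held 0.636% and were 30.6% new, and transcripts inside introns of the same strand held 0.0783% and were 51.7% new. How strand entered the counting was not stated in the labels, so antisense counts may include reads of the partner gene. Ribosomal RNA, at 0.156% of counts, was 1.88% new. No mitochondrially encoded messenger RNAs were among the genes analysed here.

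Across the 10225 protein-coding genes with at least 200 whole counts at 0 h, the median gene was 25.1% new. The middle 50% of genes lay between 13.2% and 43.3%, the 10th percentile was 7.49% and the 90th 59.1%. The share was over 80% in 53 genes and under 2% in 23. The 20 highest shares belonged to SOCS3, DDIT4, ID3, TIPARP, YOD1, ID1, PPP1R3C, DUSP1, ZNF92, SMAD7, ID2, ARRDC3, ZBTB6, RGS2, MYLIP, FAM46A, SPATA2, ZFP36L2, ZNF367 and TRIB1. They ran from 89.9% down to 83.4%, and the next genes below were IER5 at 83.2%, MED26 at 83.0% and GRPEL2 at 83.0%.

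SOCS3, an inhibitor of cytokine receptor signalling, had 266 new of 296 counts (89.9%, 85.9 to 93.1). DDIT4, an inhibitor of the growth kinase mTORC1, had 1596 of 1798 (88.8%). The ID genes, whose proteins hold bHLH transcription factors off DNA, were the most abundant of the set: ID3 had 345 CPM, ID1 278 CPM at 86.1% new and ID2 156 CPM at 84.8% new. The phosphatase gene DUSP1, which switches off MAP kinases, had 1183 new of 1388 counts (85.2%, 83.2 to 87.1). TIPARP, a mono-ADP-ribosyltransferase that dampens the aryl hydrocarbon receptor, had 86.6% new at 72.1 CPM. Members such as RGS2 (10.2 CPM), SOCS3 (8.83 CPM) and MYLIP (7.04 CPM) had counts in 17.4% to 19.5% of cells.

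AU-rich stretches in the 3′ untranslated region are binding sites of proteins that speed up messenger RNA decay. Among the 20 genes with the highest share, 8 (40.0%) held the heptamer TATTTAT in the last 500 bases of their GENCODE transcript, read on the sense strand only. Over all 10030 genes matched to a transcript, 14.5% did. The core TTATTTATT, which contains the heptamer, was in 3 of the 20, in the same last 500 bases. The windows of 30 bases below show the heptamer or the core, in capitals, in the untranslated regions of 6 of these genes, which were chosen to show signalling inhibitors and transcription regulators side by side:
SOCS3: aactttgcacaTATTTATatttatattcag
TIPARP: aggattctatTTATTTATTtacgtttgata
DUSP1: gggctggtccTTATTTATTtaacttcaccc
ID2: gtgatattcgtTATTTATgaaaaagacttt
ZBTB6: attatttataTTATTTATTcctgttcagta
YOD1: cgtgcaacaaaTATTTATtgagtaatttat
The sequences come from the GENCODE transcripts of build GRCh38, while the submitters' processing notes name hg19. TIPARP and DUSP1 each hold the core in 2 places. Each window shows the first core of the untranslated region, or the first heptamer where there is no core. In YOD1, TIPARP, DUSP1 and ID2 the site shown lies before the last 500 bases, which hold a further heptamer. DDIT4, ID3, ID1, PPP1R3C, ARRDC3, RGS2 and MYLIP, which belong to the same 20 genes, had no heptamer in the untranslated region of the transcript used. FAM46A, SPATA2, ZFP36L2 and ZNF367 held it there, but outside the last 500 bases. The untranslated region of TRIB1 is not reported here. Whole untranslated regions were not searched over all genes, so only the count in the last 500 bases has a background share.

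Over all matched genes, the share of genes with the heptamer was 5.68% among the tenth of genes with the lowest new share and 23.1% among the tenth with the highest. The median T content of the same 500 bases was 23.2% and 33.6% in these groups. A T is where S4U is built in and where the base change is read, so both values are given together. When genes were put in 5 groups by T content, those with the heptamer had the higher median new share in each group. The medians with and without it were 20.6% and 13.8% in the group with least T and 29.1% and 20.9% in the next. They were 31.3% and 24.7% in the middle group, then 32.1% and 29.5%, and 39.1% and 34.2% in the group with most T. The median length of the untranslated region also rose over these groups, from 373.5 to 1910 bases. Genes were not grouped by this length. Across genes, the new share had a Spearman's rho of 0.44 with the genomic span of the gene, 0.34 with T content and −0.30 with the whole RNA level. Genes are not independent replicates, and the parts of T content and of intron reads in the new share were not tested. The part of untranslated region length in the heptamer counts was not tested either.

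**Figure D2:**
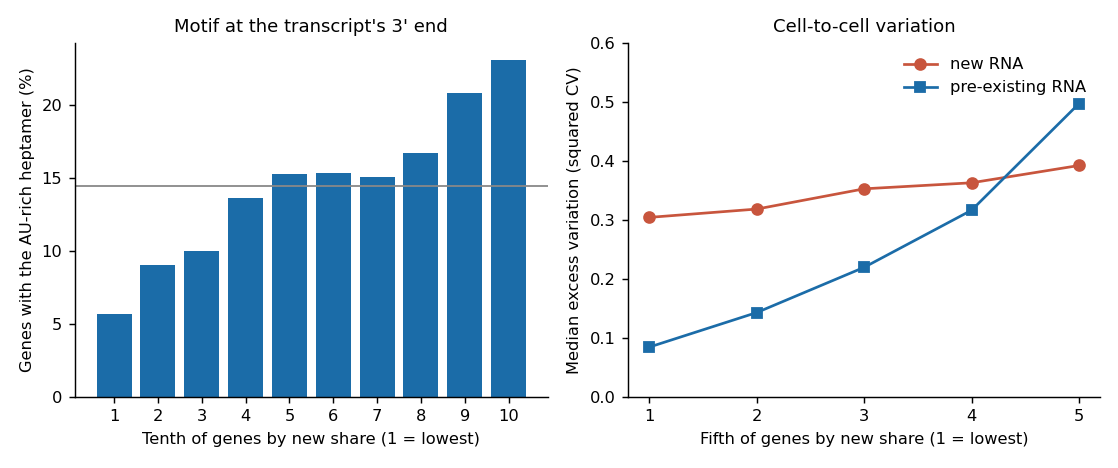
Left, percent of genes whose last 500 transcript bases hold the AU-rich heptamer, in 10 groups of genes by new share, with the 14.5% of all matched genes as a line. These 500 bases reach beyond the untranslated region where that is shorter. Right, median excess variation between cells (squared coefficient of variation beyond counting) of new and pre-existing counts, in 5 groups by new share. From lowest to highest share, the heptamer goes from 5.68% to 23.1% of genes, and variation of pre-existing RNA from 0.0843 to 0.497, while that of new RNA goes from 0.304 to 0.392.

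At the other end, NGB, the neuronal globin, had 0 new of 208 counts, which allows a share of up to 1.44% (3 counts). GPS2, a corepressor subunit, was 0.583% new (0.496 to 0.680) although it held 27294 counts. CYBA, a subunit of the NADPH oxidase, was 1.47% new of 6479 counts, ATP5D, a subunit of the mitochondrial ATP synthase, 1.18%, and the secreted trefoil peptide TFF1 1.31%. FAM166A, ATRNL1, VTN, AC087645.1, SNX32, DGAT1 and CTSF completed the 12 lowest, all between 0.336% and 1.36%. The next genes up were GSDMD and RBP4, both at 1.62%, and FAM211A at 1.66%. The error rate of the new call in these cells is unknown, so differences among shares this low have no known floor.

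The functional lists differed widely in new share. The counts below are described beside the 10% of all protein-coding genes that lie above the 90th percentile (59.1%) and the 10% below the 10th (7.49%). Of 23 immediate early genes with enough counts, 19 were above the 90th percentile, with a median of 73.3%. They included the AP-1 subunit genes JUNB (82.5%) and JUN (73.4%), the Krüppel-like factor KLF6 (81.3%), the apoptosis inhibitor MCL1 (70.0%) and the matrix protein CYR61 (80.4%). SRF, the transcription factor that drives many of them, was at 19.6%, and JUND at 39.3%. Of 28 feedback and short-lived regulators, 20 were above it (median 72.1%). NFKBIA, the inhibitor of NF-κB, had 80.7%, the decay factor gene ZFP36L1 75.6% and the Notch target HES1 82.2%. The genes of polyamine synthesis and its control on this list were lower, with AMD1 at 37.3%, ODC1 at 12.6% and OAZ1 at 5.91%.

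Zinc finger genes with a ZNF symbol were the largest group of high new share. Of 245 measured, 123 were above the 90th percentile, and their median of 59.1% equalled it. ZNF92 had 85.1%, ZNF267 81.6% and ZNF675 80.6%, while ZNF358 had 7.81% and ZNF511 10.2%. Their level was low, at 0.723% of whole counts for all of them, and they took 1.81% of new RNA.

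Stress and growth pathways held transcripts of high and of low new share. Among 17 p53 targets (median 44.1%), the p53 phosphatase PPM1D had 80.2%, the kinase PLK2 79.5% and MDM2, the ligase that destroys p53, 57.7%. The cell death gene BAX had 9.10% and the quinone reductase TP53I3 4.43%. In the integrated stress response (15 genes, median 27.5%), the phosphatase subunit PPP1R15A had 64.7% and the transcription factor DDIT3 53.3%. The amino acid genes driven by the pathway, ASNS (12.6%), PSAT1 (14.4%) and SLC7A5 (12.6%), were lower. The cholesterol pathway (26 genes, median 15.7%) split likewise. The sterol sensor partner INSIG1 had 59.7%, against 7.27% for DHCR7 and 11.7% for FDPS, both enzymes of the pathway. In the endoplasmic reticulum list (20 genes, median 8.20%), the transcription factor XBP1 had 54.3% and HERPUD1 54.8%, while the chaperones HSP90B1 and CALR had 5.63% and 6.05%.

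The lists of cell machinery had low shares. Of 84 cytosolic ribosomal protein genes, 62 were below the 10th percentile, with a median of 6.31% and a highest value of 19.3% for RPL7L1, a paralog. Medians were 6.05% for glycolysis, 6.07% for nuclear genes of the respiratory chain, 5.34% for the actin cytoskeleton and 7.80% for the proteasome. No member of these 5 lists was above the 90th percentile, and the highest was 35.8%, in the proteasome list. Mitochondrial ribosomal protein genes were higher, at 13.4%. Small nucleolar RNA host genes, whose spliced RNAs are often decayed during translation, ran from 13.9% for SNHG6 to 60.7% for SNHG1, with a median of 48.1%.

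Among the NRF2 targets, 10 of 29 were below the 10th percentile and none above the 90th (median 11.1%). ALDH3A1, an aldehyde dehydrogenase, was at 2.72%, AKR1B10 at 5.62% and NQO1, a quinone reductase, at 6.22%. The highest shares on the list included OSGIN1 at 45.5%, the transporter gene ABCC2 at 41.3% and GCLC, of glutathione synthesis, at 31.4%. Other glutathione genes were lower, with GSR at 11.2% and GPX2 at 6.29%. The list's 30 genes thus took 1.53% of new against 3.24% of whole counts.

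**Figure D3:**
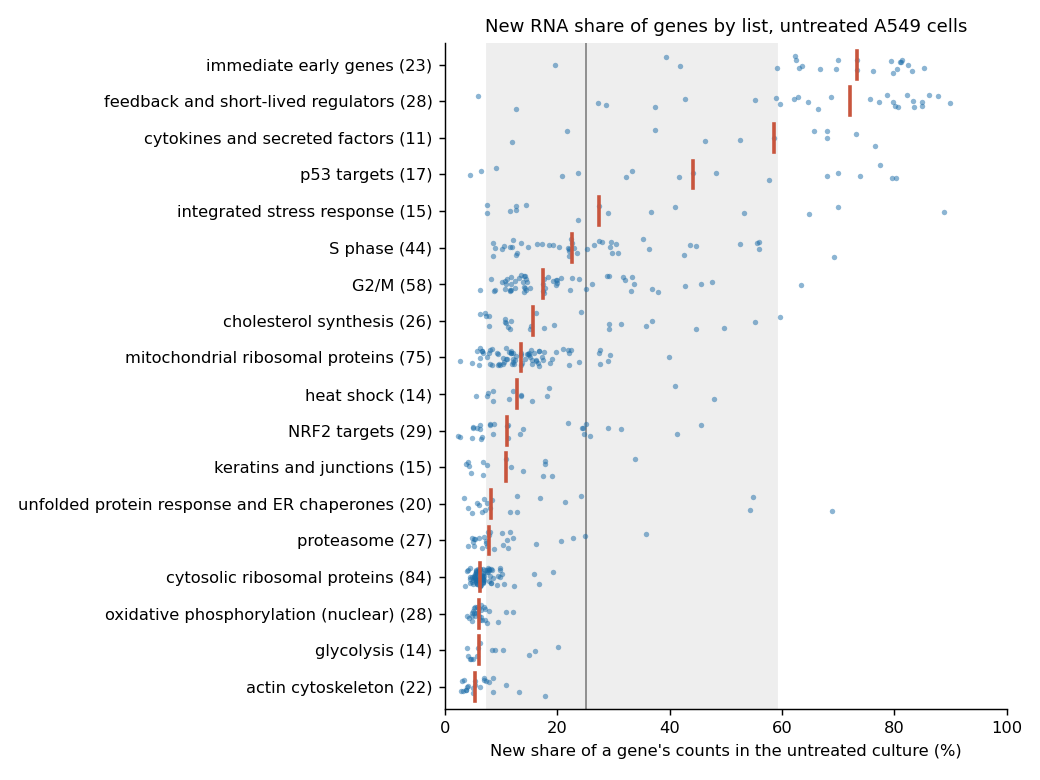
New share (percent) of each gene with at least 200 whole counts at 0 h, 1 point per gene, by list with the number of genes in parentheses. Red bars are list medians, the vertical line is the median of all protein-coding genes (25.1%) and the grey band runs from their 10th to their 90th percentile (7.49% to 59.1%). Immediate early genes and feedback regulators lie mostly right of the band, and the ribosomal, respiratory, glycolytic and actin lists lie near or left of its lower edge.

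Variation between cells was measured as excess variation, the squared coefficient of variation beyond Poisson counting with each cell's total as exposure. A value of 1 means that the SD across cells beyond counting equals the mean. Of 8236 genes with a mean of at least 0.5 counts per cell, the median was 0.196 and 357 genes were over 1. Low list medians were 0.0461 for the proteasome, 0.0501 for cytosolic ribosomal proteins, 0.0585 for glycolysis and 0.0590 for the respiratory chain, and GAPDH was at 0.0540. Heat shock genes (0.0785), mitochondrial ribosomal proteins (0.0923) and the actin cytoskeleton (0.116) were higher. G2/M genes had a median of 0.582 and immediate early genes 0.706.

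New and pre-existing counts could be compared for 6412 genes with a mean of at least 0.2 counts in both. New RNA had the higher value in 4573 of them, with medians of 0.350 and 0.225. The order was the other way in the genes with the highest new share. With genes in 5 groups by new share, the median in the highest group was 0.392 for new and 0.497 for pre-existing RNA, and in the lowest group 0.304 and 0.0843. The mean number of counts differs between the groups, and its part in this order was not tested.

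Some of the largest values belonged to single RT barcodes or single cells. PTGS2, the inducible cyclooxygenase, had the highest value, 78.5, but 1 cell held 212 of its 754 counts, and without that cell the value was 7.14. The long noncoding RNA AC007131.2 had 1209 of its 1290 counts in the 20 cells of 1 RT barcode, every one of which had at least 20 counts. No other cell had more than 4, and the level was 1691 CPM inside the barcode and 2.47 outside. Without it the excess variation went from 54.5 to 4.02. C2orf15 was similar, with 868 of 1833 counts in the 21 cells of another barcode and a drop from 11.6 to 0.275. C14orf159 had 263 of 829 counts in the 11 cells of yet another barcode and dropped from 9.55 to 0.374. Inside these barcodes the counts were almost all pre-existing, at 2.23%, 0.576% and 1.90% new, against 11.1%, 29.7% and 38.3% in the remaining cells. Of 10905 genes of all classes with at least 200 counts, 7 had over 25% of their counts in 1 barcode, and these fell in 6 barcodes. PTGS2 is among the 7 through its 1 high cell, as only 2 of the 21 cells of its barcode had counts. The median gene had 3.58%. Apart from PTGS2, these genes are described here by barcode and not as cell states.

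**Figure D4:**
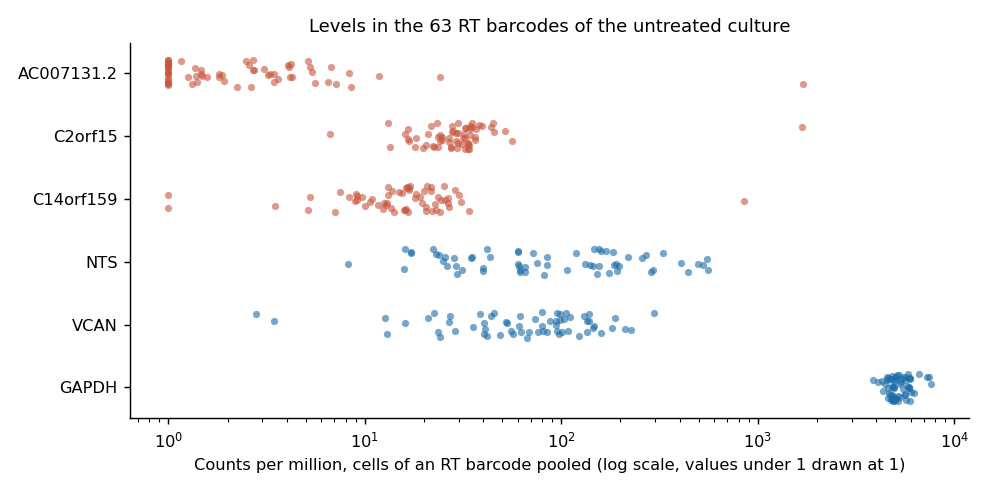
Level of 6 genes (CPM, log scale) in the pooled cells of each of the 63 RT barcodes, 1 point per barcode. AC007131.2, C2orf15 and C14orf159 (red) each stand at 846 to 1691 in 1 barcode and at 56.1 or less in every other, while NTS, VCAN and GAPDH (blue) have no such gap.

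Of the remaining variable genes, NTS, VCAN, NPTX1, CEACAM6 and CPS1 had cells with at least 20 counts in 15 or more barcodes. The others had fewer such cells, for example 9 for CADM2, 4 each for FGG and H19, and 1 each for SLC2A3 and DIO2. NTS, the neuropeptide neurotensin, had counts in 22.9% of cells, and the top 5% of cells held 77.1% of its 4392 counts. The 52 cells with at least 20 counts came from 37 barcodes, and the highest cell had 353. CEACAM6, an adhesion protein of epithelial tumours, was rarer still, in 7.73% of cells, with 97.1% of counts in the top 5% and its 16 highest cells in 15 barcodes. VCAN, a matrix proteoglycan, was in 28.1% of cells and its 42 highest cells came from 29 barcodes. FGG, a fibrinogen chain, CPS1, an enzyme of the urea cycle, the imprinted RNA H19, the neuronal pentraxin NPTX1, the mucin MUC5B and TFF1 were each in 17.3% to 32.0% of cells, with excess variation from 6.92 to 13.6. Low new shares were common here: 2.30% of H19 counts, 2.66% of MUC5B, 3.55% of NTS and 5.73% of FGG were new. CADM2, a neural adhesion gene (53.7% new), the glucose transporter SLC2A3 (57.9%) and PITPNC1 (57.6%) had higher shares, as did PTGS2 (57.4%). COL12A1 and DIO2 rested in large part on 1 cell each, going from 12.4 to 3.19 and from 8.10 to 4.63 without it. Among all 190 pairs of the 20 most variable genes, the 58 cells highest for each gene had a median of 3 cells in common. The pairs with most in common were SLC2A3 with PITPNC1 (18 cells), CADM2 with either of them (17 each) and CADM2 with NTS (13). Cells with PITPNC1 counts, 38.5% of all cells, held 67.7% of SLC2A3 counts and 71.1% of CADM2 counts. For comparison, cells with C2orf15 counts, 51.9% of all cells, held 59.45% and 60.7% of them. The depth of the cells was not taken into account in these percentages.

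The main axis of variation was led by cell cycle genes. The 1st principal component of the 1000 most variable genes carried 7.88% of their variance. Its top genes were CCNB1, CENPE, ASPM, CKS2, AURKA, KIF14, ARL6IP1 and HMMR, most of them known to act at the spindle or at entry into mitosis. PCDH9, SYT1, PDE4B and COL5A2 led the other end. The component had a rho of 0.88 with the summed G2/M list, 0.24 with whole counts and −0.40 with the new share. CCNB1, CENPE, CKS2, AURKA and HMMR also belong to that list, so the component and the sum share genes and are not independent. The 2nd (4.99%) had TRAM1, NRG1, PMEPA1 and CXCL5 among the genes at one end and the mitotic genes CENPE, ASPM, CCNB1, KIF14 and HMMR at the other. Its rho was −0.42 with the G2/M sum, which again holds some of these genes, and 0.33 with the S phase sum. At the top of the 3rd (3.87%) stood GPX2, AGR2, ALDH3A1, AKR1C1, FN1, CPLX2 and MUC5AC, redox enzymes together with secretory and mucin genes, opposite AKAP12, MALAT1, ANTXR1 and IGFBP3. Its rho with whole counts was −0.33.

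After each cell was thinned to 10000 counts (1103 cells, with 48 shallower ones left out), the G2/M list summed to a median of 129 counts, with 10th and 90th percentiles of 36 and 260 and a highest cell of 562. Unthinned, the median was 127 per 10000. Cells were then divided into 3 equal groups by this sum, which is a range and not a cell type. The groups met at sums of 81 and 187, and their median whole counts were 25735, 27758 and 28604. Outside the list, the DNA clamp gene PCNA was at 570, 576 and 277 CPM from the lowest to the highest group. In the same order, the nucleotide synthesis genes RRM2 and TYMS were at 243, 555 and 497 CPM and at 158.5, 222 and 186 CPM. From lowest to highest, the replication helicase gene MCM5 went from 110 to 40.5 CPM and the G1/S cyclin gene CCNE2 from 28.6 to 3.34. Within the list, CCNB1 was at 81.2, 281 and 672 CPM, AURKA at 22.98, 121 and 380 and TOP2A, the topoisomerase of replicating chromosomes, at 375, 1486 and 2875. When each member was left out of the sum that ranked the cells, 56 of 57 G2/M genes and 40 of 43 S phase genes were more than 1.5-fold higher in the top group of cells than in the bottom group. CBX5, a heterochromatin protein, was the G2/M exception, at 310 CPM in the top and 321 in the bottom group. No such count was made over all genes.

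The new share of the G2/M genes themselves was lower where they were abundant. It was 21.4% in cells low in G2/M transcripts, 17.0% in the middle group and 14.6% in high cells. The list's whole counts rank the cells here and are also the denominator of this share, so the 2 are not independent. S phase genes had 24.6%, 18.9% and 18.9%, and all other genes 22.3%, 20.4% and 20.4%. With cells grouped by the S phase sum instead, the G2/M genes were 13.4% new in the low, 14.4% in the middle and 23.1% in the high group. In the S phase grouping, G2/M genes thus had their highest share in cells rich in S phase transcripts. The S phase genes, whose counts rank the cells in this grouping, were at 22.7%, 20.6% and 20.1%. All other genes were at 21.96%, 20.4% and 20.6%. Replication-dependent histone genes, which are transcribed in S phase, had a median excess variation of 1.76 over the 7 members with enough counts per cell, and a median new share of 31.6% over 14 measured members. HIST1H1D, with 165 CPM, had counts in 45.5% of cells.

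**Figure D5:**
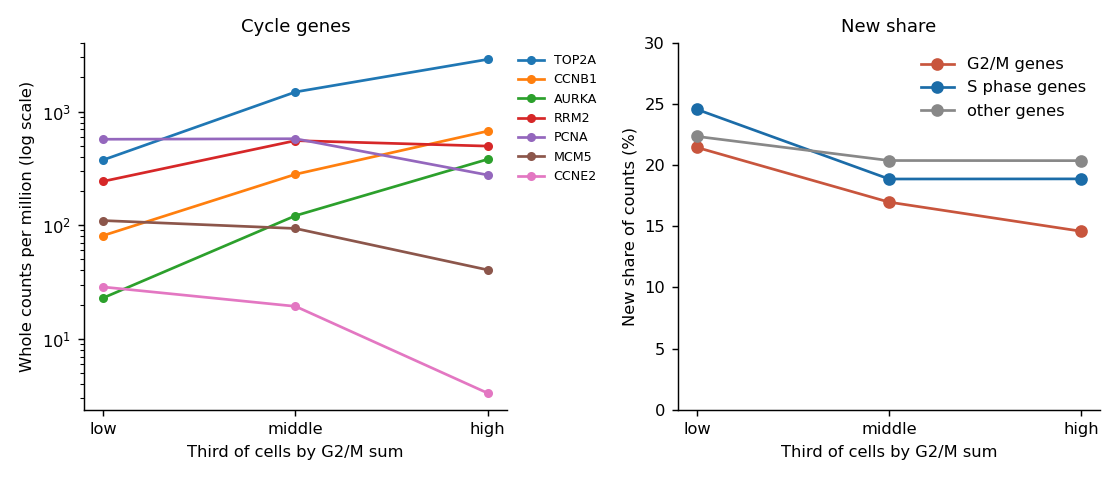
Cells in 3 equal groups by their summed G2/M counts after thinning. Left, level of 7 cycle genes (whole CPM, log scale), with TOP2A, CCNB1 and AURKA highest and PCNA, MCM5 and CCNE2 lowest in the high group; right, new share (percent) of the G2/M list, the S phase list and all other genes, each highest in the low group.

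Part of the NRF2 list also varied together between cells. Ranked by the sum of the other NRF2 targets, the top of 3 equal groups of cells exceeded the bottom one more than 1.5-fold in 11 of 28 members. GPX2 went from 107 to 575 CPM, AKR1C1 from 289 to 985, ALDH3A1 from 499 to 1632 and AKR1B10 from 2438 to 6193. In new RNA the same genes were also higher in the top group, with 25.5 and 200 new CPM for GPX2 and 585 and 1879 for AKR1B10. The other 17 members, among them TALDO1, UGDH and PGD, differed by less, and HMOX1, the heme oxygenase, was lower in the top group (53.6 and 38 CPM). The median ratio of the list was 1.38, beside 1.37 for the immediate early, 1.39 for the cholesterol and 1.37 for the endoplasmic reticulum list. By this median the NRF2 list did not stand out from these lists. The ratio was not computed over all genes, so the counts of members have no background share. In the immediate early list 7 of 18 members passed the same ratio, led by DUSP1 (29.1 and 59.0 CPM), and in the cholesterol list 7 of 21. None of 11 integrated stress response genes did.

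The untreated culture was last set against the 5 treated cultures, to see which of these baseline features differ from dexamethasone-treated cells. Each culture was 1 sample of summed counts, tested with edgeR's quasi-likelihood test and Benjamini-Hochberg adjustment over all genes. The test takes the spread among treated cultures, which includes change over time, as that of the lone untreated culture too. Cells of 1 culture are not replicates. In whole RNA 63 genes (0.275% of 22894) were higher and 138 (0.603%) lower in the untreated culture at an adjusted p under 0.05. In new RNA 381 (2.18% of 17507) were higher and 669 (3.82%) lower. These counts depended on single cultures. Leaving out 1 treated culture at a time gave 18 (without 6 h or 8 h) to 669 (without 2 h) higher and 57 (without 6 h) to 931 (without 2 h) lower in whole RNA. In new RNA it gave 201 (without 6 h) to 846 (without 2 h) higher and 428 (without 6 h) to 1176 (without 2 h) lower. DESeq2 called 233 higher and 548 lower in whole RNA.

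Of the 15 leading genes of whole RNA, none passed in whole RNA with edgeR or DESeq2, though 2 had an unadjusted edgeR p under 0.05, and 4 passed in new RNA. New FTL was at 1943 CPM in untreated cells and at 892, 809, 783, 821 and 908 CPM after 2, 4, 6, 8 and 10 h, above all treated cultures (log2 difference, untreated minus treated, 1.14 ± 0.09 SE, edgeR adjusted p = 0.000178). New FTH1 went the other way, with 362 CPM against 504, 523, 500, 489 and 510 (log2 −0.55 ± 0.09, edgeR adjusted p = 0.00558). New KRT8 was at 516 CPM against 837, 1315, 1363, 1366 and 1478, below all treated cultures (log2 −1.37 ± 0.26, edgeR adjusted p = 0.01504). New KRT7 and KRT18 were also lower in untreated cells, but the call of KRT18 was lost when any 1 of the 4, 6, 8 or 10 h cultures was left out. New AKR1B10 was higher in untreated cells.

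Among the 20 genes with the highest new share, ID2 was higher in untreated whole RNA and DUSP1, DDIT4 and TIPARP were lower. In new RNA 2 were higher and 6 lower. Whole DUSP1 was at 41.4 CPM in untreated cells and at 116, 147, 155, 154 and 142 CPM in the treated cultures (log2 −1.81 ± 0.17, edgeR adjusted p = 0.00380). Whole ID2 was at 156 CPM against 90.8, 71.4, 81.4, 82.5 and 72.7 (log2 0.94 ± 0.11, edgeR adjusted p = 0.0128). The untreated value lay outside the treated range for both genes. Without the 6 h culture the whole RNA call of ID2 was lost (edgeR adjusted p = 0.0558), and those of DDIT4 (edgeR adjusted p = 0.109) and TIPARP (edgeR adjusted p = 0.107) were lost without the 4 h culture, among others. In new RNA the calls of PPP1R3C and YOD1 were lost in the same way. Of the 12 genes with the lowest new share none passed with edgeR or DESeq2, in whole RNA or among the 9 tested in new RNA. An unadjusted edgeR p under 0.05 was found for 0 of them.

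Of the 30 NRF2 targets, 8 were higher in untreated new RNA (PRDX1, NQO1, AKR1B10, AKR1B1, TKT, EPHX1, GCLM and SLC7A11). None passed in whole RNA with edgeR or DESeq2, where 5 had an unadjusted p under 0.05. The new RNA calls of TKT, EPHX1, GCLM and SLC7A11 were lost without the 6 h culture, with edgeR adjusted p from 0.0819 to 0.116. New NQO1 was at 637 CPM against 374, 337, 366, 391 and 416 (log2 0.69 ± 0.11, edgeR adjusted p = 0.00632). The list's median difference in new RNA was 0.37 on the log2 scale, beside −0.01 for all genes tested. Of 25 cytokines and secreted factors, 20 were tested in new RNA, of which 10 were higher in untreated cells and 2 lower. New GDF15, a stress-induced growth factor, was at 32.3 CPM against 10.1, 4.43, 4.32, 4.26 and 3.50 (log2 2.54 ± 0.37, edgeR adjusted p = 0.00347). The S phase list had a similar median difference in new RNA, 0.36, and 0.19 in whole RNA, without a gene that passed. In the S phase, ribosomal, respiratory chain and endoplasmic reticulum lists, 0 genes passed in whole or new RNA with edgeR or DESeq2. At an unadjusted edgeR p under 0.05 there were 0 in whole RNA, and 2, 3, 1 and 0 of them in new RNA.

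The 2 most variable genes that passed in whole RNA were AC007131.2 and C2orf15, both named above for a single RT barcode. C2orf15 stood at 54.7 CPM in all untreated cells and at 29.2 CPM without that barcode, inside the 27.9 to 29.3 CPM of the treated cultures. AC007131.2 stood at 38.5 CPM, and at 2.47 CPM without the barcode, inside the 2.08 to 8.08 CPM of the treated cultures.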

How the data were processed

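Whole and new RNA were measured in 1151 untreated A549 cells by sci-fate, with the 5 treated cultures used only for the last comparison. The authors deposited raw counts per gene and cell for whole and for newly synthesised RNA, without normalization, with read counts over exons and introns listed for each cell, per the file headers. Per the submitters' processing notes, Trim Galore 0.4.1, STAR 2.5.2b, SAMtools 1.3, Picard 1.105 and the build hg19 were used. The removal of duplicates and the calling of new molecules are not described in the sources read for this work. The doublet score is the authors' fraction per cell, and no doublet caller was run.

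Pre-existing counts are whole minus new counts, which were never negative. Shares carry exact Clopper-Pearson 95% intervals, which cover counting error only, and a count of 0 allows 3 counts. Depth at 0 h was 33530002 whole and 6994019 new counts. Excess variation, principal components (1000 genes, log-normalised counts) and sums after thinning (10000 whole counts, seed 7) were computed with numpy 2.4.6 and scipy 1.17.1. Culture sums were tested with edgeR 4.0.16 (glmQLFit, TMM, filterByExpr) in R 4.3.3, and DESeq2 1.42.0 was an alternative. Both the variation estimate and the test were run on simulated data. The cultures simulated for the test had no change over time, unlike the treated cultures, so the run does not cover that part of the spread.

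Named genes are the 15 highest in whole, new and pre-existing RNA, the 20 highest and 12 lowest new shares, the 20 most variable in whole and 10 in new RNA, 8 at either end of 3 components, and list members. The cells, members and lists were chosen with earlier results of these data known. The RT barcode of a cell was read from its name. Some genes that fall under this rule are not reported here.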

Additional observations from a re-analysis of the deposited data

How the results depend on the processing

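The new share of the untreated culture was 20.5% over protein-coding genes, 20.9% in cells with at least 10000 whole counts, 20.8% without the 10% of cells with the highest doublet score and 19.8% as a median over cells. The median over genes was 26.4% with a minimum of 50 whole counts and 21.3% with 1000. The number of genes with excess variation over 1 depended on the mean count required, at 1091 with 0.2 and 164 with 1 count per cell, and was 563 after thinning to 10000 counts. Leaving out 1 cell or 1 RT barcode per gene, both chosen after seeing the data, gave 291 and 324. Without a low-count filter, 149 genes were higher and 302 lower in untreated whole RNA, and 614 higher in new RNA. DESeq2 gave 233 higher and 548 lower in whole RNA. When each treated culture was left out in turn, whole RNA calls ran from 18 to 669 higher and from 57 to 931 lower, and new RNA calls from 201 to 846 and from 428 to 1176. The highest value of each came without the 2 h culture. The cause was not tested. No paired analysis was possible because each time is 1 culture with no replicate numbers. The alternative without mitochondrially encoded genes was not run, because no such gene was among those analysed.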

Other observations

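LINC00486, annotated as a long intergenic noncoding RNA, was 9th in whole RNA with 107782 counts, and only 38 of them (0.0353%) were new. It had counts in 99.9% of cells, an excess variation of 0.0818, and a new share between 0.0287% and 0.0492% in the 5 treated cultures. This was lower than the 1.66% of the ribosomal RNA gene RNA28S5 and than GPS2 (0.583%). GPS2 likewise had counts in 99.0% of cells and 0.533% to 0.622% new in the treated cultures. Which molecules these counts come from was not tested.

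If levels are steady and every molecule made in the 2 h of labelling, and no older one, is called new, a share converts to a half-life. In dividing cells this value does not separate decay from dilution by growth. None of these assumptions could be checked here. Under them, the median protein-coding gene has 4.80 h, the 90th percentile of shares 1.55 h, SOCS3 0.606 h and DUSP1 0.725 h. MYC has 1.55 h, NR3C1 1.52 h, TXNRD1 4.66 h and GAPDH 31.1 h. Missed new molecules would make these values too long, and old molecules called new would make them too short. Intron reads, 65.7% new against 13.1% of exon reads, were not set apart, so the values need not be those of the finished messenger RNA.

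Some other genes had many counts in a single RT barcode. RBM33 had 560 of 3220 counts in the 21 cells of 1 barcode and was 39.1% new inside it and 53.8% outside. RFC1 had 446 of 3930 counts in 19 cells, with 4.93% and 20.8% new. The pseudogene AC004980.7 had 292 of 2122 counts in 19 cells, with 5.82% and 74.5% new. Counts of MYO16, ANKRD29 and SNX25 in their main barcode were 150 of 243, 84 of 456 and 171 of 1165. These 6 genes were chosen after their values were seen.

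The interferon response list had low shares (9 measured genes, median 5.37%), with B2M at 4.83%, apart from the transcription factor IRF1 at 65.3%. Of 8 metallothionein genes, 4 had no counts, and MT2A (117 CPM, 4.79% new) and MT1X (20.3 CPM, 4.11%) were the measured ones.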
